A study of Mus musculus with 2 samples.

Results

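Mir431, Mir433, Mir127, Mir434 and Mir136 are 5 of the 2202 microRNA genes counted in small RNA libraries of mouse gastrocnemius, the large calf muscle. They were chosen by symbol from the microRNA genes that lie antisense to Rtl1 in the imprinted Dlk1-Dio3 region of chromosome 12, and all 5 were found. Mir432, also annotated antisense to Rtl1 in this interval, was not among the symbols chosen. The libraries came from 2 female B6CASTF1/J mice aged 36 days, the first-generation hybrid of C57BL/6 and CAST/EiJ. They form 1 group, gastrocnemius replicate 2 and gastrocnemius replicate 1, with 1 library each and no treatment or control. Both records carry the same donor identifier, although their descriptions name separate females. If the identifier stands for 1 mouse, the differences between the libraries are not differences between animals.

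Dlk1-Dio3 is an imprinted region, in which genes are read mainly from the chromosome of 1 parent. Rtl1, a gene derived from a retrotransposon and needed in the placenta and in fetal muscle, is expressed from the paternal chromosome. The microRNAs on its opposite strand come from the maternal chromosome, as do the non-coding RNAs Meg3 and Rian and the large microRNA cluster downstream. Since they are read from the strand opposite to Rtl1, they pair with its transcript along their whole length, and in mouse they are known to direct its cleavage. In mouse muscle cells miR-431 is known to act on Pax7, the factor of satellite cells, and miR-127 to favour their differentiation. The counts do not tell the parental alleles apart, and Rtl1 itself, a protein-coding gene, was not measured in these small RNA libraries.

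Each hairpin gives a microRNA from its 5′ arm and another from its 3′ arm. The counts, made per gene, do not tell the arms apart. The 10 mature sequences, taken from the RefSeq table for GRCm38.p6, are shown because the seed, bases 2 to 8 from the 5′ end and here in capitals, sets which transcripts a microRNA recognises. They are written 5′ to 3′ as RNA.
miR-431-5p: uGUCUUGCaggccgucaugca
miR-431-3p: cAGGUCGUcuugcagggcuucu
miR-433-5p: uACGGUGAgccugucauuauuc
miR-433-3p: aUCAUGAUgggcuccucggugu
miR-127-5p: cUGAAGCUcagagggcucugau
miR-127-3p: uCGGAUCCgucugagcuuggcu
miR-434-5p: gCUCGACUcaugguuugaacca
miR-434-3p: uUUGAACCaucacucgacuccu
miR-136-5p: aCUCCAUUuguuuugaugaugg
miR-136-3p: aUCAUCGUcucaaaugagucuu

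The 10 sequences carried 10 different seeds, and none of these seeds was shared with any other of the 1738 mature microRNAs in that table. They were 21 or 22 bases long, and their GC content ran between 36.4% for both arms of Mir136 and 59.1% for miR-127-3p and miR-431-3p. Between the hairpins of any pair of the 5 genes the longest identical stretch was 5 to 7 bases, so they are neighbours without being copies of each other. The longest stretch shared with a microRNA hairpin elsewhere was 11 or 12 bases on either strand, when the opposite-strand partner of Mir136 was set aside. None of the 10 mature sequences occurred in a GENCODE transcript, on either strand, other than its own gene, Rtl1 and that partner. The tables assign no gene to a read with several genomic matches. A search of the whole genome was not made.

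All 10 mature sequences were complementary over their full length to the Rtl1 transcript, each at a single site inside the coding sequence in exon 2 (chromosome 12, 109590169 to 109595403, minus strand, mm10). The genes lie on the plus strand within 4942 bases, from 109590447 to 109595388, with gaps of 1177 bases between Mir431 and Mir433, 1007 between Mir433 and Mir127, 1590 between Mir127 and Mir434, and 727 between Mir434 and Mir136. Mir136, at 109595327 to 109595388, faces the start of the Rtl1 reading frame: miR-136-3p pairs with coding bases 17 to 38 and miR-136-5p with bases 52 to 73, counted from the A of the start codon. Mir434 (109594506 to 109594599) comes next, with its arms opposite coding bases 818 to 839 and 855 to 876. Mir127 (109592846 to 109592915) faces the middle, opposite bases 2495 to 2516 and 2529 to 2550. Mir433 (109591715 to 109591838) lies further on, and Mir431 (109590447 to 109590537) faces the end, with miR-431-5p opposite bases 4925 to 4945 of the 5235 coding bases with the stop codon.

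The Rtl1 sites opposite the most and the least abundant gene of the group are shown on the coding strand, with the bases that pair with the seed in capitals.
Rtl1 opposite miR-127-3p, chr12:109592888-109592909, minus strand: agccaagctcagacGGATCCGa
Rtl1 opposite miR-136-5p, chr12:109595331-109595352, minus strand: ccatcatcaaaacaAATGGAGt

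All 5 genes had reads in both libraries, and every one passed the detection minimum of 10 reads in both, as 273 of the 2202 genes did. Together they held 2.50% of gene-assigned reads in replicate 2 (exact binomial 95% interval 2.48 to 2.52) and 2.10% in replicate 1 (2.08 to 2.12), a mean of 2.30% ± 0.281 (SD, n = 2). These shares count 51917 of 2078101 and 33490 of 1593787 reads. Intervals here cover counting error only, since reads that are PCR copies of 1 molecule cannot be recognised.

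Mir127 was far above the others. It had 44342 reads in replicate 2 and 26922 in replicate 1, which is 21338 and 16892 counts per 1000000 gene-assigned reads (CPM), with a mean of 19115 ± 3144 CPM (SD, n = 2). By mean CPM of reads assigned to a single gene it ranked 14 among all microRNA genes. Reads that matched several places, 77.6% of the replicate 2 library and 75.4% of the replicate 1 library, count for no gene, so the rank says nothing of microRNAs read mostly from such copies. Its rank was 12 in replicate 2 and 17 in replicate 1. The 2 detected genes outside the group nearest to it in level, by distance in log2 CPM over both libraries, were Mir26b (19282 and 17317 CPM) and the let-7 gene Mirlet7d (26583 and 18299 CPM).

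Mir434 came next, with 4663 reads in replicate 2 and 4111 in replicate 1, or 2244 and 2579 CPM, and a mean of 2412 ± 237 CPM. It is the gene of miR-434-3p, which in mouse has been described as falling in aged muscle, though these counts do not separate that arm from the other. Its nearest genes in level were Mir361, on the X chromosome (2278 and 2361 CPM), and Mir541 (2517 and 2133 CPM), a gene of the downstream cluster in the same region. Mir433 had 1601 and 1387 reads, or 770 CPM in replicate 2 and 870 in replicate 1, with a mean of 820 ± 70.6 CPM. Its nearest genes were Mir101b (738 and 990 CPM) and Mir676 (953 and 856 CPM).

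Mir431 had 1081 reads in replicate 2 and 772 in replicate 1, or 520 and 484 CPM, with a mean of 502 ± 25.3 CPM. The nearest genes were Mir154 of the same region, with 524 and 429 CPM, and Mirlet7c-2, with 486 and 433 CPM. Mir136 was the lowest of the 5, with 230 reads in replicate 2 and 298 in replicate 1. That is 111 and 187 CPM, with a mean of 149 ± 54.0 CPM, and rank 145. Its nearest gene, Mir376a of the downstream cluster, had 104 and 185 CPM, and Mir186 had 115 and 166 CPM.

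**Figure D1:**
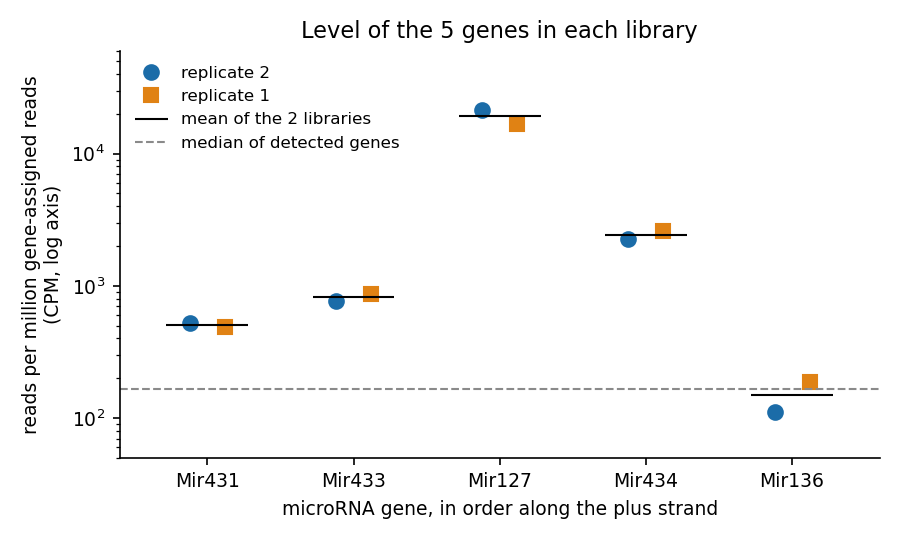
CPM (log axis) of the 5 genes in replicate 2 (circles) and replicate 1 (squares), with the mean of both libraries as a line and the median of the 273 detected genes dashed. Mir127 stands near 19115 CPM, Mir136 near 149 CPM, and only Mir136 lies around the dashed median of 166 CPM.

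The order Mir127, Mir434, Mir433, Mir431, Mir136 was the same in both libraries, and no neighbours in that order overlapped between libraries. Mir127 exceeded Mir434 9.51-fold in replicate 2 and 6.55-fold in replicate 1. Mir434 exceeded Mir433 2.91-fold and 2.96-fold, the step that differed least between the libraries. Mir433 exceeded Mir431 1.48-fold and 1.80-fold, and Mir431 exceeded Mir136 4.70-fold and 2.59-fold. CPM were not divided by gene length, because a small RNA read covers a mature microRNA and not the hairpin, whose length was 62 to 124 bases. Mean CPM per hairpin base gave the same order, from 273 for Mir127 to 2.40 for Mir136. Sequences also differ in how well adapters ligate to them, so these steps compare counts and need not be those of the molecules.

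The reads of the group divided differently in the 2 libraries. Mir127 held 85.4% of them in replicate 2 (exact 95% interval 85.1 to 85.7) and 80.4% in replicate 1 (80.0 to 80.8). Mir434 held 8.98% (8.74 to 9.23) and 12.3% (11.9 to 12.6), and Mir433 held 3.08% (2.94 to 3.24) and 4.14% (3.93 to 4.36). For these genes the intervals of the libraries did not overlap. Mir431 held 2.08% (1.96 to 2.21) in replicate 2 and 2.31% (2.15 to 2.47) in replicate 1, with overlapping intervals. Mir136 held 0.443% (0.388 to 0.504) and 0.890% (0.792 to 0.996), again apart. Shares within the group are tied to each other, since a larger share of Mir127 leaves less for the rest. The differences in share are therefore not separate results, and a lower share need not mean fewer reads for the library size.

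**Figure D2:**
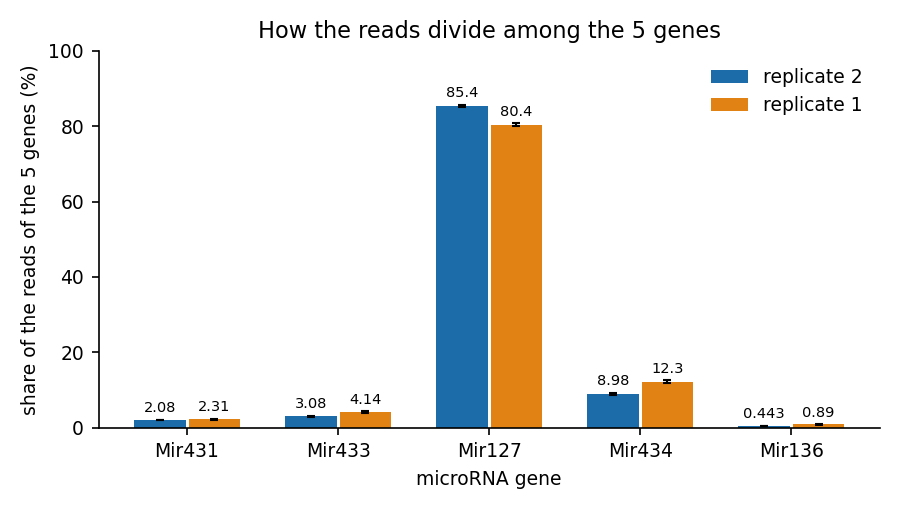
Share of the reads of the 5 genes, in percent, held by each gene in replicate 2 (blue) and replicate 1 (orange). Bars are the shares and black lines are exact binomial 95% intervals. Mir127 holds 85.4% and 80.4%, while Mir136 stays under 1% in both libraries.

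Since the series holds 1 group, the remaining comparison is between its libraries, replicate 2 over replicate 1. Libraries were scaled by TMM (trimmed mean of M-values), and the reads of each detected gene were set against the split that the scaled library sizes give with an exact binomial test, two-sided, with Benjamini-Hochberg adjustment over all 273 genes at 0.05. The test compares these 2 libraries with counting error alone. It called 63.0% of detected genes, 33.3% higher and 29.7% lower in replicate 2, and more than 2-fold differences were seen for 12.1%. Of the 5 genes, 2 were higher, 2 were lower and 1 did not pass, and none differed more than 2-fold. Their log2 ratios ran between -0.69 and 0.40, with a median of -0.11, beside a median of 0.02 over all detected genes. The median size of the log2 ratio was 0.17 in the group and 0.36 over all detected genes.

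Mir127 was 1.32-fold higher in replicate 2 (exact 95% counting interval 1.30 to 1.34). Mir431 was 1.12-fold higher (1.02 to 1.24, exact binomial test, adjusted p = 0.0221), though under scaling by total reads the fold was 1.07 and did not pass. Mir434 had a fold of 0.911 (0.874 to 0.951) and was lower in replicate 2 (exact binomial test, adjusted p = 3.65e-05). Mir136 was lower as well, with a fold of 0.620 (0.520 to 0.739, adjusted p = 1.42e-07 by the exact binomial test). Mir433 had a fold of 0.927 (0.862 to 0.997) and did not pass (exact binomial test, adjusted p = 0.0640), but passed as lower under 6 of 7 alternatives.

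None of the 5 folds is large beside those of all detected genes. The coefficient of variation between the libraries over all detected genes was 0.335, from edgeR's common dispersion. With edgeR's exact test at that dispersion, which was estimated from the same libraries and holds their difference, 1.47% of genes were called and all 5 members had an adjusted p of 1. Of all detected genes, 46.5% had a larger log2 ratio in either direction than Mir127, and 25.6% had a larger one than Mir136. The detected genes were not matched to the group for level. The median of mean CPM was 166 over all detected genes and 820 in the group.

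**Figure D3:**
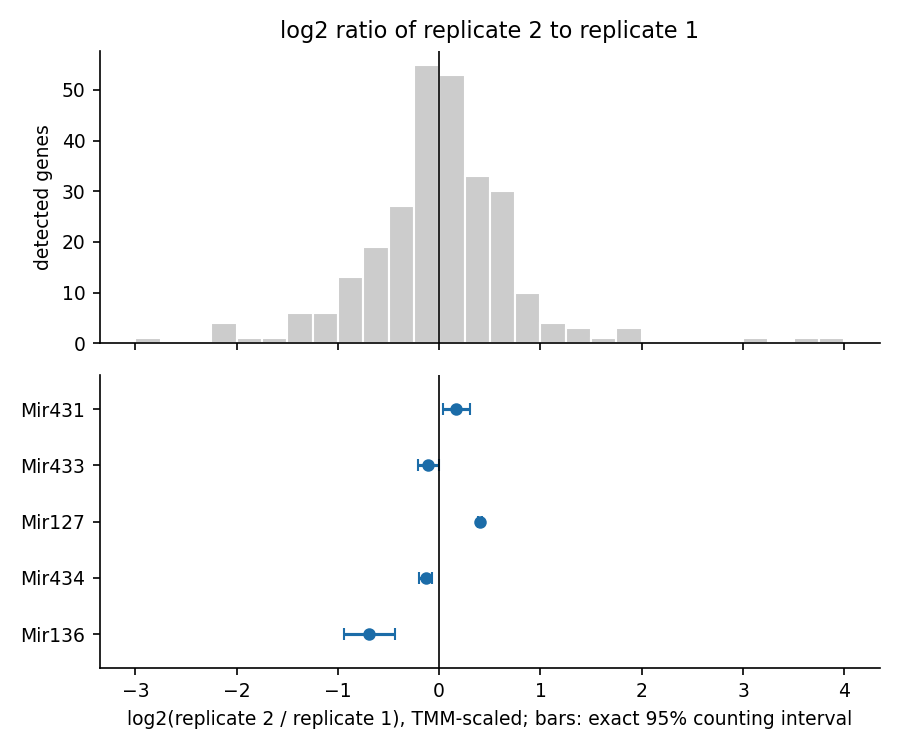
Upper panel: number of detected genes at each log2 ratio of replicate 2 to replicate 1, TMM-scaled. Lower panel: the log2 ratio of each of the 5 genes with its exact 95% counting interval. The 5 genes lie between -0.69 (Mir136) and 0.40 (Mir127), inside the bulk of the 273 genes.

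Ratios between 2 genes of the group need no scaling of the libraries. Of the 10 pairs, 9 had a ratio that changed between the libraries beyond the exact 95% counting interval. The exception was Mir434 over Mir433, which was 2.91 in replicate 2 and 2.96 in replicate 1, a change of 0.983-fold (0.903 to 1.07). The pairs share genes, so their changes are not separate results. Pairs of other detected genes were not examined, so the count of 9 is not shown to set the group apart. Against counting error alone, the exact binomial test called 63.0% of all detected genes. Mir127 over Mir434 was 9.51 and 6.55, a change of 1.45-fold (1.39 to 1.52). Mir127 over Mir433 changed 1.43-fold (1.32 to 1.54), and Mir127 over Mir431 changed 1.18-fold (1.07 to 1.29). The largest change was in Mir127 over Mir136, 193 in replicate 2 and 90.3 in replicate 1, or 2.13-fold (1.79 to 2.55). Mir136 was thus the member that moved most against the others: Mir431 over Mir136 changed 1.81-fold (1.49 to 2.22), Mir433 over Mir136 1.50-fold (1.24 to 1.81) and Mir434 over Mir136 1.47-fold (1.23 to 1.76).

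**Figure D4:**
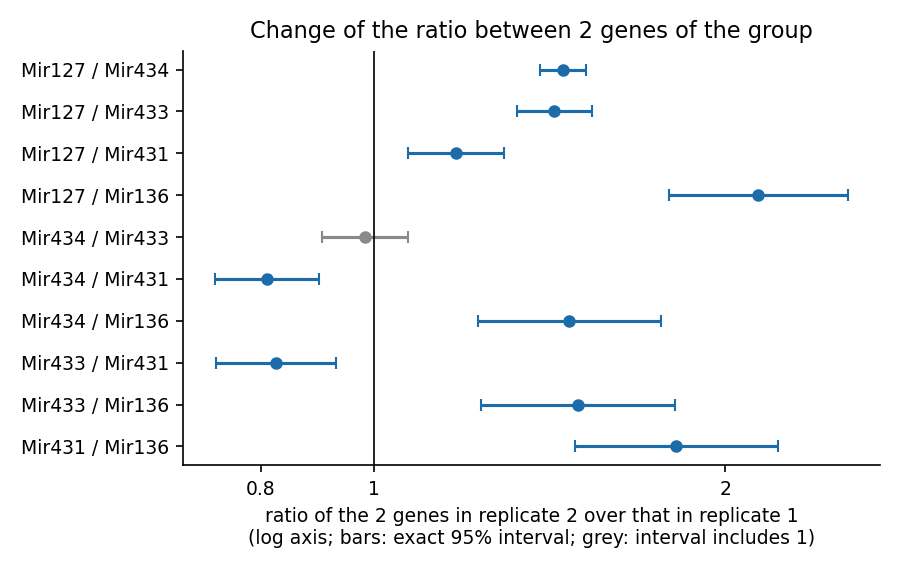
For each of the 10 pairs of genes, the ratio of their reads in replicate 2 divided by the same ratio in replicate 1 (log axis), with exact 95% intervals. Only Mir434 / Mir433, in grey, includes 1, and Mir127 / Mir136 lies farthest out at 2.13.

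Mir136 and Mir3071 share a locus on opposite strands, and the hairpin of Mir136 lies wholly inside that of Mir3071 (109595318 to 109595397, minus strand), with 62 bases in common. The hairpins are shown with their mature arms in capitals, because they are read from the same bases on opposite strands. miR-136-5p is complementary to miR-3071-3p over 20 bases, and miR-136-3p to miR-3071-5p over 19.
Mir136: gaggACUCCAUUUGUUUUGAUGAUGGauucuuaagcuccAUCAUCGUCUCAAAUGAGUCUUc
Mir3071: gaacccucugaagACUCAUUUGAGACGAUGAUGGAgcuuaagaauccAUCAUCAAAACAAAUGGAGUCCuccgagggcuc

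The reads of this locus were nearly all on the strand of Mir136. Mir3071 had 3 reads in replicate 2 and 1 in replicate 1, against 230 and 298 for Mir136, so that the plus strand held 98.7% (exact 95% interval 96.3 to 99.7) and 99.7% (98.2 to 99.99). The counts thus fell on the strand opposite to Rtl1, with hardly any on the strand that Rtl1 itself is read from. Without regard to strand, Mir136 and Mir3071 both had 0 counts, since such reads are then left as ambiguous. At the other 4 genes the opposite strand held 1 read, at Mir434 in replicate 2. Mir432, annotated between Mir434 and Mir136 (109594956 to 109595030, plus strand), had 0 reads in both libraries, although its mature sequence too is complementary over its full length to Rtl1, at coding bases 376 to 398. With no read, up to 3 reads remain possible, or 1.44 CPM in replicate 2 and 1.88 CPM in replicate 1, which is far under the level of each of the 5 genes.

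Mir434 differs from the other hairpins in its make-up. The 13-base stretch ugguuugaaccau occurs in it more than once, the longest repeat inside any of the 5 hairpins. It lies across the end of the 5′ arm and again across the start of the 3′ arm. Both arms are in capitals.
Mir434: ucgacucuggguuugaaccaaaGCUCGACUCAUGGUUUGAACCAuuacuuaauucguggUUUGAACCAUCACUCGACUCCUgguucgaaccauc

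The longest repeat was 10 bases in Mir431 and 5 or 6 in the other 3 hairpins. GC content of the hairpins was 60.4% for Mir431, 57.1% for Mir127, 56.5% for Mir433, 45.7% for Mir434 and 40.3% for Mir136, beside a median of 49.0% over the 231 detected genes with a hairpin in the RefSeq table. The predicted folding energy per base (RNAfold) was -0.50 kcal/mol for Mir127, the most stable of the 5, and -0.36 for Mir433, the least. The median of those 231 genes was -0.43.

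Within the Dlk1-Dio3 region, 58 microRNA genes were considered. Mir127 had the most reads of them in replicate 2 and came after Mir411 in replicate 1, where 26922 reads stood beside 26999, a ratio of 0.997 (exact 95% interval 0.980 to 1.01). In replicate 2 that ratio was 1.51 (1.49 to 1.54). The 5 genes held 39.9% of the region's reads in replicate 2 and 36.0% in replicate 1. The other 53 genes, 40 of them detected, held 60.2% and 64.0%. Of these 40, 15 were higher in replicate 2, 6 lower and 19 did not pass, with a median log2 ratio of 0.07. That is 37.5% higher and 15.0% lower, beside 33.3% and 29.7% of all detected genes.

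The ratio of the 5 genes to their neighbours on the Meg3 and Rian side did not change beyond counting error when their reads were summed. It was 8.60 in replicate 2 and 8.79 in replicate 1, a change of 0.979-fold (0.937 to 1.02). Mir127 carries most of that sum, and it changed 1.04-fold against these neighbours (0.995 to 1.09). The other 4 genes together fell against them, at 1.25 in replicate 2 and 1.72 in replicate 1, a change of 0.728-fold (0.691 to 0.767). Each of the 4 was lower by this ratio beyond the counting interval, with changes between 0.487-fold for Mir136 and 0.884-fold for Mir431. The most abundant of these neighbours were Mir337 (1846 and 1525 CPM, 1.27-fold higher, 1.21 to 1.34), Mir493 (484 and 318 CPM, 1.59-fold higher, 1.43 to 1.78), Mir341 (183 and 171 CPM, not passed) and Mir673 (179 and 149 CPM, 1.26-fold higher, 1.06 to 1.48). Mir127 over Mir337 was 11.6 and 11.1, a change of 1.04-fold (0.989 to 1.10).

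Against the downstream cluster from Mir379 to Mir410 the group gained when reads were summed, though not every member did. The ratio of the 5 genes to the cluster was 0.718 in replicate 2 and 0.602 in replicate 1, a change of 1.19-fold (1.17 to 1.21). Mir127 by itself changed 1.27-fold against the cluster (1.24 to 1.29). The other 4 genes together changed 0.888-fold (0.857 to 0.919), in the opposite direction. Among them Mir431 had a change of 1.08-fold, not beyond counting error (0.981 to 1.18), while Mir433 (0.888-fold, 0.826 to 0.956), Mir434 (0.873-fold, 0.836 to 0.912) and Mir136 (0.594-fold, 0.498 to 0.708) were lower against the cluster. The most abundant genes of the cluster differed among themselves. Mir411 (14103 and 16940 CPM) was lower, with a fold of 0.872 (0.858 to 0.887), whereas Mir379 (8019 and 6894 CPM) was 1.22-fold higher (1.19 to 1.25). Mir541 was 1.24-fold higher (1.18 to 1.29), and Mir382 (2670 and 1871 CPM) was 1.50-fold higher (1.43 to 1.56). Mir411 held 29307 of the cluster's 72326 reads in replicate 2 and 26999 of 55669 in replicate 1. The ratios to the cluster thus depend strongly on Mir411, and they were not computed without it.

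**Figure D5:**
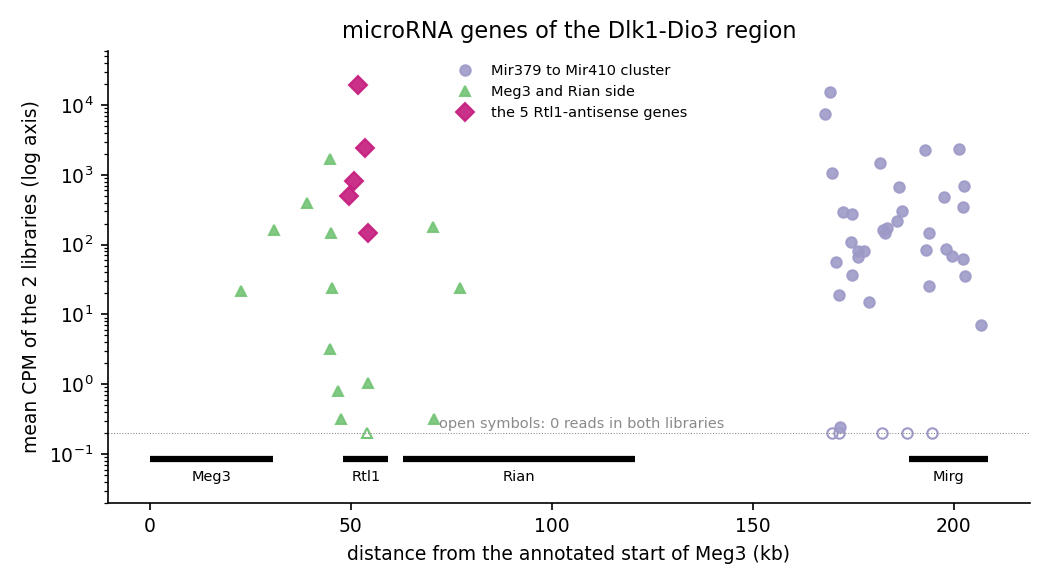
Mean CPM of both libraries (log axis) of the microRNA genes of the Dlk1-Dio3 region against the distance from the annotated start of Meg3 in kb, with the host and neighbour genes as black bars. Open symbols are genes with 0 reads in both libraries. Mir127 is the highest point, at 19115 CPM, and the 5 Rtl1-antisense genes (diamonds) stand together between Meg3 and Rian.

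Lists of cell type marker genes also differed between the libraries, and genes of 1 list could go different ways. All 9 genes of the skeletal muscle list had reads, and 7 were detected. The list held 6.98% of reads in replicate 2 and 2.21% in replicate 1, most of it Mir206. Mir206 had 139295 reads in replicate 2 and 32871 in replicate 1, Mir499 had 1527 and 86, and Mir208b, not tested, had 889 and 5. Mir1a-2 (402 and 368 CPM) and Mir486 (1170 and 972 CPM) were higher by less. Mir1a-1, Mir133a-1 and Mir133b did not pass, so the difference was not shared by the whole list. The endothelial list held 11.3% and 8.82%, which was Mir126a, since Mir126b had 0 reads and 1 read. Smooth muscle genes held 6.25% and 12.03%, most of it Mir143 (126842 and 188067 reads). The erythroid genes Mir451a and Mir144 held 0.898% and 3.73%. The 4 leukocyte genes held 0.209% and 0.142% but went both ways, with Mir155 (2.44-fold) and Mir150 (1.65-fold) higher and Mir142 (0.474-fold) and Mir223 (0.496-fold) lower in replicate 2. Of the 3 glial genes, Mir338 had 1105 and 2411 reads, while Mir219a-1 had 8 and 4 and Mir219a-2 had 7 and 5. The heart gene Mir208a had 15 reads and 1 read. Of the 7 neuron genes, 5 had 0 reads, all 3 Mir124a genes among them, and the list held 0.00101% and 0.00439%. Nearly all of its reads were of Mir137, with 20 in replicate 2 and 70 in replicate 1, which was lower (0.230-fold, 0.132 to 0.382). Mir1a, Mir133a, Mir124a, Mir9 and Mir219a have more than 1 gene each, and reads that match several of these copies are in no gene's count. The part of these differences in the folds of the 5 genes was not tested. In tissue, fewer cells of a type and less RNA per cell cannot be told apart.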

How the data were processed

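The authors deposited raw read counts per microRNA gene, made with the mm10 build and annotation M21 according to an accompanying read-me text. For the aligner and counter, the sources used here give no name. A table has no header, 3 columns of counts and 4 summary rows. From layout and values the columns were taken as counts without regard to strand, on the gene's strand (used here) and on the opposite strand. Of 14072830 reads in replicate 2 and 9538917 in replicate 1, 77.6% and 75.4% matched several places, 5.98% and 6.37% were unmapped, and 1.65% and 1.49% lay outside microRNA genes. Library sizes and tests left these rows out.

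Gene symbols and coordinates came from GENCODE M21 (2202 of 2202 identifiers matched) and sequences from RefSeq tables for GRCm38.p6 (all 5 members matched, hairpins identical to GENCODE). CPM used gene-assigned reads. Scaling and tests used edgeR 4.0.16, DESeq2 1.42.0 (size factors only) and R 4.3.3, Python 3.11.15, scipy 1.17.1, numpy 2.4.6, pandas 2.3.3, matplotlib 3.10.9 and RNAfold 2.7.2. The binomial procedure was tested on simulated data that held counting error only. Such data cannot show how it behaves under the wider spread between the real libraries. Ratios of 2 genes are conditional odds ratios with exact intervals and no p.

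Members and lists were chosen with earlier results of these data known. Besides the 5 members, the genes named were the 2 nearest in level to each, the 4 most abundant of each list of other Dlk1-Dio3 genes (57 entries, of which 53 matched), genes inside or overlapping the interval, and cell type markers. Alternatives were 2 other scalings, 2 other read minimums, counts without regard to strand, the common dispersion, other totals, and leaving out each replicate or the most abundant gene.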

Additional observations from a re-analysis of the deposited data

How the results depend on the processing

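No paired analysis was possible because the samples form 1 group. For Mir127, Mir434 and Mir136 the direction and the call held under every alternative that gave a value except the edgeR test at the common dispersion, where the folds of 1.32, 0.911 and 0.620, and that of 1.12 for Mir431, no longer passed (adjusted p = 1 each). Over the alternatives these folds ran between 1.25 and 1.32 for Mir127, 0.863 and 0.911 for Mir434, 0.587 and 0.620 for Mir136, and 1.06 and 1.12 for Mir431. Mir431 also failed to pass with scaling by total reads (1.07), no read minimum (1.06) and the most abundant gene left out (1.10). Mir433 passed as lower with DESeq2 size factors (0.918), total reads (0.885), no read minimum (0.878), at least 50 reads in both (0.911), counts without regard to strand (0.923) and the most abundant gene left out (0.908). At the common dispersion 0 other Dlk1-Dio3 genes were higher and 0 lower, and over all detected genes 3 were higher and 1 lower, in place of 91 and 81 by the exact binomial test. The share of the 5 genes was 3.28% without regard to strand, 2.73% with the most abundant gene left out and 0.390% with multiply matched reads in the total, since these settings change the total. It ran between 2.10% and 2.50% with either replicate left out. Without regard to strand Mir136 had a share of 0% and no fold, and the ranks of Mir431, Mir433 and Mir434 were 71, 57 and 34. With a replicate left out the rank of Mir431 was 81 to 85, of Mir433 66 to 67, and of Mir434 39 to 44. With 2 libraries, no spread between animals can be set against any fold, and Mir136, at 230 and 298 reads, has the widest counting interval.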
